A study of Mus musculus with 4 samples.

Results

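The antioxidant, glutathione and cytoglobin genes are 41 genes that detoxify reactive oxygen and electrophiles, or bind oxygen, in cultured mouse bone marrow mesenchymal stem/progenitor cells (MSPC). They were taken by symbol from a deposited table of 24487 gene rows. Each symbol had a single row, so no choice between rows by level was needed. The list itself was drawn up when results of these libraries were known, with the cytoglobin gene Cygb selected on its FPKM, which was far higher in Asxl1-/- than in WT, so the values below describe these libraries.

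The study compared MSPC of wild-type (WT) mice with MSPC lacking Asxl1, a chromatin regulator of the Polycomb system, in 2 WT and 2 Asxl1-/- libraries. All 4 cultures had a C57BL/6 background. RNA was taken at passage 5 to 10, after culture in MesenCult that held 20% supplement, with replating once 80 to 90% confluency was reached. The labels name no promoter, Cre line, age or sex, and leave unsaid if the cultures of 1 genotype are separate animals, so any p-value measures only the spread between these samples. Values are FPKM, fragments per kilobase of transcript, scaled to the mapped fragments of the library, which can be compared between genes.

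Asxl1 stood at 14.6 and 11.2 FPKM in WT and at 0.273 and 0.312 in Asxl1-/-, in the direction of the labels. Steps in the low FPKM values put the depths of the other 3 libraries at 0.956 to 1.03 times that of WT replicate 1, and the number of reads behind a value is unknown. The FPKM of all rows summed to 563749 and 703730 in WT replicates 1 and 2 and to 553089 and 497340 in Asxl1-/- replicates 1 and 2. Summed levels compared between libraries below carry that difference. The stromal identity of the cultures was checked with 16 mesenchymal markers, whose summed level was 6271 to 8912 FPKM, carried mainly by Vim, Col1a1, Col1a2, Cxcl12 and Col3a1. Members of that list differed: Lepr reached at most 0.0426 FPKM, and Pdgfra stood at 4.78 FPKM in WT replicate 2 and at 58.8 to 80.9 FPKM elsewhere. Eng stood at 10.7 FPKM in WT replicate 1 and under 1 FPKM in WT replicate 2 and both Asxl1-/- libraries. Nt5e stood at 2.31 and 7.19 FPKM in WT and under 1 FPKM in both Asxl1-/- libraries. WT replicate 2 and Asxl1-/- replicate 2 also held macrophage transcripts: 22 markers summed to 609 and 396 FPKM there, of which Lyz2 alone made 400 and 293. The sum was 8.08 in WT replicate 1 and 82.5 in Asxl1-/- replicate 1, of which the receptor subunit gene Fcer1g alone made 72.2. All of these markers but Fcer1g, Aif1 and Cd74 were higher in both replicate 2 libraries than in both replicate 1 libraries. Aif1 was at 0 and Cd74 at 0.0799 FPKM in Asxl1-/- replicate 2. Summed levels of the 8 endothelial, 7 erythroid and 10 other blood cell markers reached at most 8.15 FPKM in any library, and Tie1, Emcn, Gata1, Cd3e and Mpo were at 0 in all. In such bulk RNA, fewer cells of a type and less RNA per cell cannot be told apart.

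As background, cells remove superoxide with superoxide dismutases, and hydrogen peroxide and lipid peroxides with catalase, peroxiredoxins and glutathione peroxidases. Glutathione and thioredoxin supply the reducing power and are themselves recycled with NADPH. The transcription factor Nrf2 (gene Nfe2l2) switches on many of these genes when oxidants or electrophiles release it from its inhibitor Keap1, through the antioxidant response element. Stromal cells of bone marrow lie beside blood stem cells, which are sensitive to reactive oxygen. Cytoglobin is a globin of fibroblast-like cells, and it can scavenge nitric oxide and reactive oxygen.

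The genes were abundant. Their median level among the 40 with a mean of at least 1 FPKM was 58.7 FPKM, against 10.7 FPKM over all 11485 rows that passed that filter, and 12 of the 41 had a mean of 100 FPKM or more. The cystine carrier gene Slc7a11 was just under the filter with a mean of 0.999 FPKM and was not tested. Cygb passed it only through its level in Asxl1-/-. No gene passed the adjusted threshold of 0.05 in limma, a linear model fitted to log2(FPKM + 1) of all rows and adjusted over them, where the share called was 0% higher and 0.0261% lower. Leaving out Cygb, the adjusted p ran from 0.503 to 0.992. Cygb was in the fit but was chosen for its difference, so its p is not given. Of the other genes, Gpx4 on the higher side and Nqo1, Gstm1 and Gstm5 on the lower side had an unadjusted limma p under 0.05. The backgrounds over all rows were 2.51% higher and 5.41% lower. In the authors' deposited table, made with Cuffdiff, 0 of the 41 genes were marked significant, against 0.939% of 12881 tested genes.

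The 2 Asxl1-/- values exceeded the 2 WT values for 2 of the 40 tested genes, Cygb and Gpx4, where the background over all tested rows was 15.6%. Both lay below both WT libraries for 8, or 20%, where the background was 25.2%. These were Nfe2l2, Nqo1, Hmox1, Gclm, Gss, Gstm1, Gstm5 and Gstp1, and the untested Slc7a11 did so as well. Neither share exceeded its background, so separation of the groups was no more common here than among all genes. The log2 fold change of Asxl1-/- minus WT was negative for 30 of the 40 genes, or 75%, against 56.8% of all tested rows, with a median of -0.18 against -0.07 over all tested rows. Under median ratio scaling the medians were -0.091 and 0.0069. That median rested on Asxl1-/- replicate 2: it was -0.031 without this library and -0.49 without Asxl1-/- replicate 1. Asxl1-/- replicate 2 held the lowest value of the 4 libraries for 24 of the 41 genes, while 27.1% of all tested rows had their lowest value there. WT replicate 2, with the highest summed macrophage markers (609 FPKM, against 396 in Asxl1-/- replicate 2), held the lowest value for 4 of the 41 genes. Taking only the 2 libraries with high markers, the median difference between genotypes came to -0.53. Taking only the 2 with low markers, it came to 0.072. Replicate numbers do not pair the libraries, so each of these medians sets 1 library against 1 other. The part of macrophage RNA in these medians was not tested.

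**Figure D1:**
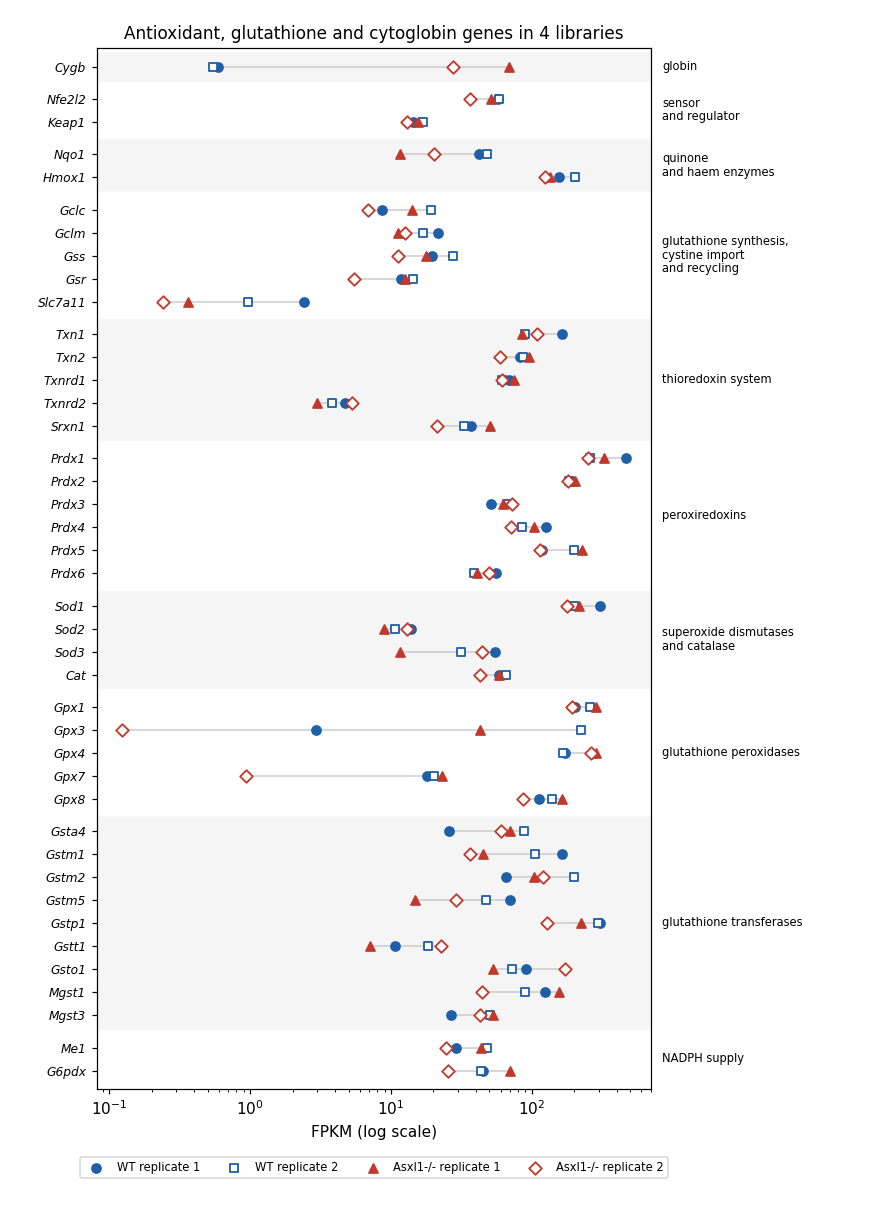
FPKM of each of the 41 genes (log scale) in WT replicate 1 (filled circle), WT replicate 2 (open square), Asxl1-/- replicate 1 (filled triangle) and Asxl1-/- replicate 2 (open diamond), ordered by role, with a grey line from the lowest to the highest library. Cygb is the gene with the groups farthest apart, Gpx3 and Gpx7 spread widely within a group, and most other genes lie within a narrow band.

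Cygb lies on chromosome 11 of the mm10 build, at 116645595 to 116654313. Its level was 0.594 and 0.548 FPKM in WT replicates 1 and 2 and 68.8 and 27.6 FPKM in Asxl1-/- replicates 1 and 2. It was thus near the floor of expression in both WT libraries and well expressed in both Asxl1-/- libraries, with a 2.49-fold gap between the latter. WT averaged 0.571 ± 0.0321 and Asxl1-/- 48.2 ± 29.1 FPKM (SD, n = 2 each), a ratio of 84.4. On the log2 scale the fold change was 4.83 (standard error 0.48), and 4.19 to 5.47 with 1 library left out. As Cygb was listed for this difference, no test is given. In the authors' deposited table its group values were 0.661 and 60.4 FPKM. Which libraries entered that table is not stated. For Cygb, Gpx3 and Sepp1 its group values stood above the means of the 4 libraries used here, by a similar factor within a genotype. Gpx3 had 134 FPKM in WT and 27.0 in Asxl1-/- there, against means of 113 and 21.6. Sepp1 had 88.0 and 472 FPKM, against means of 75.7 and 376.

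The gene next to Cygb differed the same way, at a low level and under the filter for testing. Gm11744, which RefSeq gives as an older name of Prcd, begins 2795 bp beyond Cygb in the deposited table and stood at 0.200 and 0.203 FPKM for WT versus 2.01 and 0.768 in Asxl1-/-, a ratio of 6.87. GENCODE M21 places Prcd on the opposite strand from Cygb and lets the 2 genes overlap by 780 bp. That overlap lies inside the deposited row of Cygb and outside that of Gm11744. Without stated strandedness, the gene that gave reads of the overlap is unknown. The other expressed genes within 100000 bp showed no such step. Rhbdf2 stood at 2.48 and 4.0 FPKM for WT versus 3.08 and 3.47, 1810032O08Rik at 5.51 and 4.62 against 7.07 and 4.27. Ube2o stood lower in Asxl1-/-, at 7.46 and 8.84 FPKM against 6.34 and 4.54, and so did St6galnac2, at 3.04 and 4.77 against 2.04 and 0.483. Among the other globins on the lists, the myoglobin gene Mb was at 0 in all libraries and the neuroglobin gene Ngb reached at most 0.171 FPKM. Cygb is often counted among stellate cell markers in liver. The 11 pericyte and stellate markers summed to 397 and 1320 FPKM in WT and to 937 and 1564 in Asxl1-/-, of which Acta2 made 393 to 1545 FPKM. Cspg4, Mcam, Notch3 and Rgs5 each exceeded 9 FPKM in at least 1 library, with no shared order by genotype. Others were low in all libraries: Des reached at most 1.08 FPKM, Kcnj8 0.262, Abcc9 0.252 and Hand2 0.132. The stellate genes Lrat and Reln reached at most 0.0150 FPKM. The part of such cells in the level of Cygb was not tested.

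Nfe2l2 (chromosome 2, 75675519 to 75704641), the gene of the Nrf2 activator, stood at 57.7 and 58.5 FPKM in WT and at 51.6 and 36.5 FPKM in Asxl1-/-. The WT libraries agreed closely and both Asxl1-/- libraries lay below them, replicate 2 further than replicate 1. The log2 fold change was -0.41 (standard error 0.27, limma adjusted p = 0.726), and it ran from -0.66 to -0.17 with 1 library left out. Keap1, whose protein marks Nrf2 for degradation, stood at 14.4 and 17.0 FPKM for WT versus 15.6 and 13, so the groups overlapped (log2 fold change -0.12, standard error 0.24, limma adjusted p = 0.908). Its fold change ran from -0.24 to -0.0031 on leaving out 1 library.

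Nqo1 (chromosome 8, 107388225 to 107403205), a quinone reductase and a standard readout of Nrf2, stood at 41.8 and 48.4 FPKM in WT and at 11.6 and 20.3 FPKM in Asxl1-/-. Each Asxl1-/- library held less than either WT library, and the mean was 2.82 times higher in WT. The log2 fold change was -1.49 (standard error 0.33, limma adjusted p = 0.514). It stayed between -1.86 and -1.11 with 1 library left out. Hmox1, the inducible haem oxygenase, stood at 156 and 203 FPKM for WT versus 135 and 124, a smaller step (log2 fold change -0.46, standard error 0.26, limma adjusted p = 0.69), from -0.65 to -0.27 on leaving out 1 library. Both genes lie on chromosome 8, whose genes as a whole deviated from the other 3 libraries by a median of 0.23 and 0.09 in the WT libraries and -0.26 and -0.07 in the Asxl1-/- libraries. With each library's chromosome medians removed, the log2 fold change was -1.24 for Nqo1 and -0.22 for Hmox1, and Hmox1 no longer separated the groups. Under that setting 7 genes of the list were separated low and 3 high, the third high gene being Prdx2. The share over all rows under that setting is not given here, so these counts have no background.

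The antioxidant response core TGACNNNGC was searched on both strands in RefSeq promoter windows of GRCm38.p6, from 250 bases before to 50 bases after a start site, where N is any base. Windows were found for 34 of the 41 genes and not for Cygb, Hmox1, Gclc, Gsr, Sod3, Gsta4 and Prdx6. The core was present for 10 of the 34 genes, or 29.4%, against 14.0% of 27025 genes with a window. Of the genes with both Asxl1-/- libraries low, Nfe2l2, Gstm5 and Gclm held it. They are shown with 3 genes whose groups overlapped, Prdx1, Me1 and G6pdx, so that the sites can be compared. Each line gives 29 bases 5′ to 3′ on the strand of the gene, with the core in capitals, in reverse orientation for Gclm, Prdx1 and G6pdx.
Nfe2l2 (chr2:75704885-75704913, minus strand): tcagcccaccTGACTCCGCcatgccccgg
Gstm5 (chr3:107895802-107895830, plus strand): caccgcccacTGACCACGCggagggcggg
Gclm (chr3:122245413-122245441, plus strand): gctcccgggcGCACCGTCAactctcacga
Prdx1 (chr4:116685456-116685484, plus strand): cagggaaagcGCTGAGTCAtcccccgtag
Me1 (chr9:86695902-86695930, minus strand): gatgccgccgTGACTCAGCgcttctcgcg
G6pdx (chrX:74428919-74428947, minus strand): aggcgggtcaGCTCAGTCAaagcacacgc
The core began 240 bases before the start site in Nfe2l2, 134 in Gclm, 133 in Prdx1, 57 in G6pdx, 42 in Gstm5 and 6 in Me1. Mgst1, Txnrd1, Sod1 and Srxn1 held it too, and their groups overlapped. A match describes these letters only. Of the genes with both Asxl1-/- libraries low, Nqo1, Gss, Gstm1, Gstp1 and the untested Slc7a11 had none in their windows. The hypoxia response core ACGTG, searched the same way, was present for 11 of the 34 genes, or 32.4%, against 21.8% of all genes with a window. Gclm, Gstm1 and Gstp1 were among them.

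Glutathione is made from cystine, imported by Slc7a11, by glutamate-cysteine ligase (the catalytic Gclc and the modifier Gclm) and glutathione synthase (Gss). Gclm (chromosome 3, 122245557 to 122267215), whose promoter core is printed above, stood at 21.5 and 16.9 FPKM for WT versus 11.2 and 12.5 in Asxl1-/-, with no overlap (log2 fold change -0.64, standard error 0.25, limma adjusted p = 0.629). Gss stood at 19.6 and 27.7 FPKM for WT versus 17.6 and 11.2 (log2 fold change -0.69, standard error 0.33, limma adjusted p = 0.648), and its fold change ran from -1.0 to -0.39 on leaving out 1 library. Gclc, the catalytic partner of Gclm, did not separate the groups: it stood at 8.63 and 19.3 FPKM in WT and at 14.2 and 6.87 in Asxl1-/-, with more than a doubling between the WT libraries. Slc7a11 was low throughout, at 2.42 and 0.971 FPKM for WT versus 0.362 and 0.241, and both Asxl1-/- values were below both WT values. Gsr, which regenerates reduced glutathione, stood at 11.8 and 14.4 FPKM for WT versus 12.6 and 5.42, so Asxl1-/- replicate 1 lay between the WT libraries. The 5 genes of synthesis, import and recycling summed to 64.0 and 79.2 FPKM in WT and to 55.8 and 36.3 FPKM in Asxl1-/-.

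Of the glutathione transferases, which conjugate electrophiles to glutathione, Gstm1, Gstm5 and Gstp1 stood lower in both Asxl1-/- libraries. Gstm1 (chromosome 3, 108012250 to 108017973) stood at 165 and 106 FPKM in WT and at 45 and 36.4 FPKM in Asxl1-/-. The gap between the groups was wider than the gap within WT, and the WT mean was 3.33 times the Asxl1-/- mean (log2 fold change -1.68, standard error 0.32, limma adjusted p = 0.503). Gstm5, a close neighbour on the same chromosome, stood at 69.9 and 46.9 FPKM against 14.8 and 28.9 (log2 fold change -1.42, standard error 0.42, limma adjusted p = 0.564). Gstm2, which lies between them, did not follow: it stood at 66.0 and 198 FPKM for WT versus 104 and 120. The pi-class Gstp1 (chromosome 19, 4035411 to 4037912), the second most abundant of the 41 genes, stood at 307 and 294 FPKM in WT and at 225 and 128 FPKM in Asxl1-/-. Its WT libraries differed by 1.05-fold and its Asxl1-/- libraries by 1.76-fold (log2 fold change -0.82, standard error 0.35, limma adjusted p = 0.632), with values from -1.23 to -0.42 on leaving out 1 library.

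The remaining transferases overlapped. Gsta4, which detoxifies lipid aldehydes, was lowest in WT replicate 1 at 25.8 FPKM and stood at 60.5 to 88.4 FPKM in the other 3 libraries. Gsto1 was highest in Asxl1-/- replicate 2 at 173 FPKM and stood at 52.7 to 91.6 FPKM elsewhere, and the microsomal Mgst1 was lowest in that library, at 43.9 FPKM against 88.8 to 157. Gstt1 ran from 7.12 to 22.6 FPKM and Mgst3 from 26.5 to 52.8 FPKM, without order by genotype. Transferases of a class have near-identical copies, so reads may be shared between Gstm genes and between Gstp1 and Gstp2, and their separate levels are uncertain. The 9 transferases summed to 885 and 963 FPKM in WT and to 728 and 656 FPKM in Asxl1-/-, and the 3 Gstm genes to 301 and 351 against 164 and 186.

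The chromosomes on which these genes lie differed between libraries as a whole. Genes of chromosome 3, which carries Gclm, the Gstm genes and Slc7a11, had a median deviation of 0.56 and 0.10 in WT replicates 1 and 2, of -0.58 in Asxl1-/- replicate 1 and of -0.07 in Asxl1-/- replicate 2, over 559 tested rows. With chromosome medians removed, the log2 fold change of Gclm was -0.15 in place of -0.64, that of Gstm1 was -1.19 and that of Gstm5 was -0.93. On leaving out 1 library the uncorrected value of Gclm ran from -0.81 to -0.48, that of Gstm1 from -2.0 to -1.37 and that of Gstm5 from -1.88 to -0.96. Genes of chromosome 9 had a median of -0.33 in WT replicate 1 and 0.40 in WT replicate 2, over 634 rows. The 5 genes of the list on chromosome 9, Keap1, Gclc, Gpx1, Gsta4 and Me1, were all lower in WT replicate 1 than in WT replicate 2. The part of these chromosome shifts in the single genes was not tested beyond these values.

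**Figure D2:**
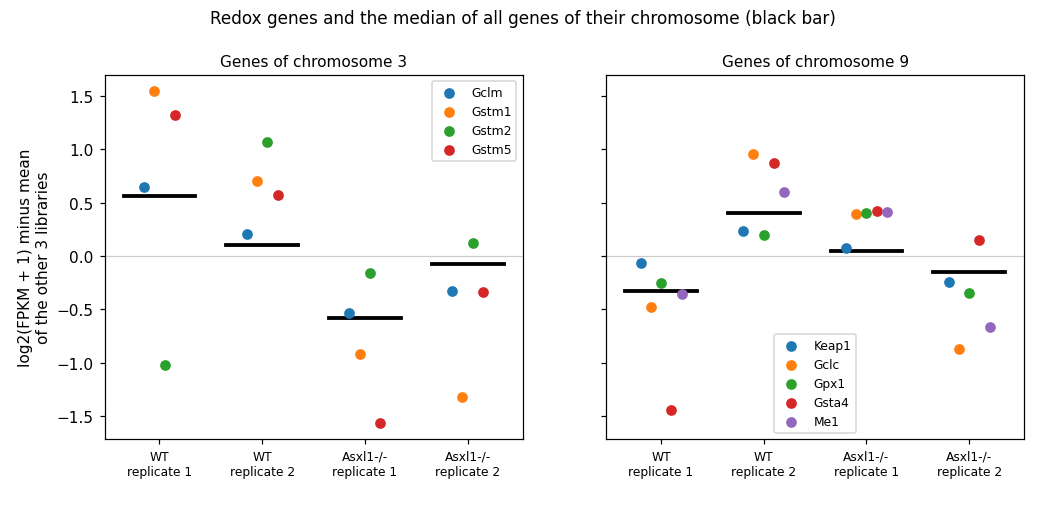
Deviation of log2(FPKM + 1) in each library from the mean of the other 3, for the tested redox genes of chromosome 3 (left) and chromosome 9 (right), with the median of all tested genes of the chromosome as a black bar. On chromosome 3 Gclm lies near the bar in the first 3 libraries while Gstm1 and Gstm5 lie beyond it, and on chromosome 9 all 5 genes are below 0 in WT replicate 1 and above 0 in WT replicate 2.

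Glutathione peroxidases held the second gene with both Asxl1-/- libraries high, and the 2 genes with the widest gaps between libraries of 1 group. Gpx4 (chromosome 10, 80047166 to 80056439), the enzyme that reduces lipid hydroperoxides in membranes and holds back ferroptosis, stood at 172 and 165 FPKM in WT and at 283 and 265 FPKM in Asxl1-/-. Libraries agreed closely within each group, with means of 169 ± 4.78 and 274 ± 12.8 FPKM (SD, n = 2 each) and a ratio of 1.62. The log2 fold change was 0.69 (standard error 0.23, limma adjusted p = 0.604) and stayed between 0.65 and 0.74 with 1 library left out. Genes of chromosome 10 had medians of -0.39 and -0.05 in the WT libraries and 0.06 and 0.32 in the Asxl1-/- libraries, and with chromosome medians removed the log2 fold change was 0.39.

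Gpx3, the secreted plasma glutathione peroxidase, spanned a far wider range, at 2.94 and 222 FPKM in WT and at 43.0 and 0.123 FPKM in Asxl1-/-. The 2 libraries of a group differed by 75.6-fold in WT and 350-fold in Asxl1-/-, so the spread within each group exceeded the difference between them (log2 fold change -2.08, standard error 2.61, limma adjusted p = 0.863). It ran from -4.99 to 0.84 on leaving out 1 library. In the authors' deposited table the group values of Gpx3 were 134 and 27.0 FPKM with a q of 0.0788. Those of Gstm1 were 156 and 51.1 FPKM with a Cuffdiff q of 0.0827, and neither gene was marked significant. Gpx7, a peroxidase of the endoplasmic reticulum, stood at 17.9 and 20.3 FPKM in WT and 23.0 in Asxl1-/- replicate 1, but at 0.927 in Asxl1-/- replicate 2. Its log2 fold change of -1.56 (standard error 1.22, limma adjusted p = 0.77) rested on that library, and without it was 0.26. The related Gpx8 stood at 113 and 139 FPKM for WT versus 164 and 86.3, and the cytosolic Gpx1 at 203 and 257 against 287 and 193.

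The peroxiredoxins, the thioredoxin system, the superoxide dismutases and catalase did not separate the groups in any of their 15 genes. Prdx1, a cytosolic peroxiredoxin and the most abundant gene of the list, stood at 466 and 258 FPKM in WT and at 326 and 252 in Asxl1-/-, with WT replicate 1 highest and the other WT library among the Asxl1-/- values. Prdx2 was even across libraries, at 193 and 182 FPKM against 202 and 180. The 6 peroxiredoxins summed to 1011 and 830 FPKM in WT and to 961 and 738 in Asxl1-/-. Prdx3, the mitochondrial member, ran from 51.6 to 72.2 FPKM, Prdx4 of the endoplasmic reticulum from 70.8 to 126, Prdx5 from 114 to 226 and Prdx6 from 39.0 to 55.8.

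Thioredoxin itself, Txn1, stood at 165 and 89.4 FPKM for WT versus 85.6 and 109. Its reductase Txnrd1 ran from 61.6 to 74.8 FPKM, the mitochondrial pair from 59.9 to 96 (Txn2) and from 2.96 to 5.27 FPKM (Txnrd2), and the sulfiredoxin Srxn1, which repairs peroxiredoxins, from 21.2 to 50.3. Txnrd1 overlaps Eid3, so their reads may be shared. Sod1, the cytosolic dismutase, stood at 306 and 201 FPKM in WT and at 215 and 176 in Asxl1-/-, with WT replicate 1 apart from the rest. The mitochondrial Sod2 ran from 8.88 to 14.0 FPKM, and catalase (Cat) from 42.6 to 65.4. The extracellular Sod3 varied most among these, at 55.0 and 31.3 FPKM for WT versus 11.6 and 44.3.

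NADPH supply was represented by the malic enzyme Me1, at 29.1 and 48.4 FPKM for WT versus 43.9 and 24.6, and by glucose-6-phosphate dehydrogenase G6pdx, at 44.9 and 43.3 against 69.5 and 25.4. The WT libraries agreed in G6pdx while the Asxl1-/- libraries lay on either side of them, 2.74-fold apart. G6pdx overlaps Ikbkg, which stood at 7.35 and 11.7 FPKM for WT versus 17.0 and 9.86. More than a 2-fold gap between the libraries of a group was present for 5 of the 41 genes in WT and for 11 in Asxl1-/-, against 18.5% and 15.8% of all tested rows. Across the 30 tested genes whose groups overlapped, leaving aside Gpx3 and Gpx7, the log2 fold change ran from -0.83 to 0.43, and the smallest limma adjusted p was 0.75.

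**Figure D3:**
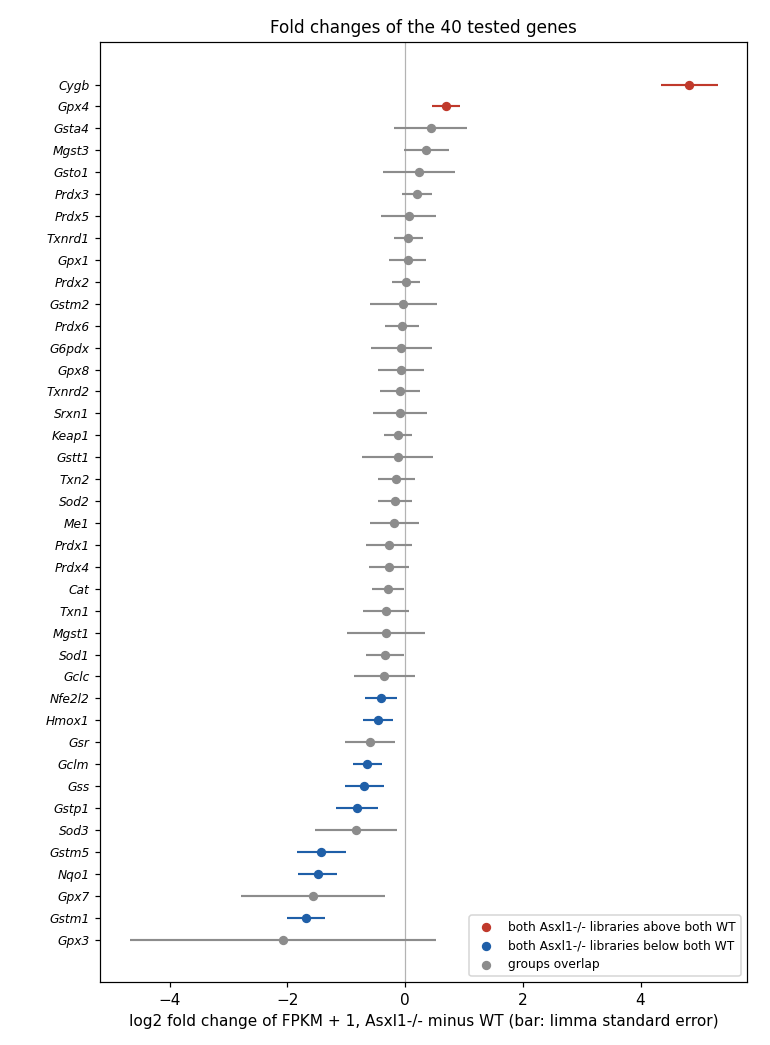
Log2 fold change of FPKM + 1, Asxl1-/- minus WT, for the 40 tested genes in order, with bars of 1 limma standard error. Red marks both Asxl1-/- libraries above both WT libraries (Cygb at 4.83, Gpx4 at 0.69), blue both below (8 genes), and grey overlapping groups, among them Gpx3 with a bar that crosses 0 widely.

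The wider redox system was described with a list of 151 further genes found in the table, 117 of them tested. Limma called 0 of them at an adjusted p under 0.05, and 18 had an unadjusted p under 0.05, 4 higher and 14 lower. These are 3.42% and 12.0%, against 2.51% and 5.41% of all rows, and 6 of the 14 lie on chromosome 3. The 2 Asxl1-/- values exceeded the 2 WT values for 17, or 14.5% against the background of 15.6%, and were under them for 28, or 23.9% against 25.2%. The median log2 fold change was -0.14. By function, the other glutathione peroxidases and transferases had the lowest median, -0.96 over 12 genes, with 6 separated low (50% against the background of 25.2%) and 0 high. Of the 12, 5 lie on chromosome 3, the chromosome with the shift given above, and so do 4 of the 6 separated low. With chromosome medians removed the median was -0.58. Under that setting 7 of the 12 were separated low and 0 high, with no background over all rows given. The genes of glutathione synthesis, breakdown and transport had 7 low (35%) and 2 high of 20, and those of NADPH supply had 6 low (40%) and 2 high of 15. The Nrf2 partners and repressors had 3 high, Mafk, Rbx1 and Sqstm1, and 0 low of 9.

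The 6 genes with the smallest p on the wider list are given by value. Sepp1, which encodes selenoprotein P, a secreted carrier of selenium for glutathione peroxidases, stood at 67.2 and 84.1 FPKM in WT and at 368 and 385 FPKM in Asxl1-/-. Libraries agreed within each group, and the Asxl1-/- mean was 4.97 times that of WT (log2 fold change 2.31, standard error 0.25, limma adjusted p = 0.353). In the authors' deposited table Sepp1 is marked significant, with a q of 0.00836. H6pd, which makes NADPH inside the endoplasmic reticulum, stood at 16.1 and 10.1 FPKM for WT versus 67.3 and 32.4 (log2 fold change 1.79, standard error 0.45, limma adjusted p = 0.544) and is marked significant in the authors' deposited table as well, also with a q of 0.00836. These were the only 2 of the 126 genes of the wider list tested in the authors' deposited table that it marks.

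Cth, which makes cysteine from cystathionine and so feeds glutathione synthesis, stood at 8.88 and 6.31 FPKM in WT and at 0.959 and 0.806 in Asxl1-/- (log2 fold change -2.18, standard error 0.31, limma adjusted p = 0.407). Gstm7 stood at 4.51 and 3.80 FPKM against 0.0684 and 0.332 (-2.11, standard error 0.36, limma adjusted p = 0.48). Mgst2 stood at 12.2 and 21.7 FPKM against 4.45 and 1.90 (-2.12, standard error 0.45, limma adjusted p = 0.503). Blvrb, a biliverdin reductase, had close replicates, at 34.9 and 34.4 FPKM against 18.7 and 20.0 (-0.81, standard error 0.22, limma adjusted p = 0.553). Cth, Gstm7 and Mgst2 lie on chromosome 3, whose genes as a whole stood lower in Asxl1-/-. With chromosome medians removed their log2 fold changes were -1.68, -1.61 and -1.63.

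**Figure D4:**
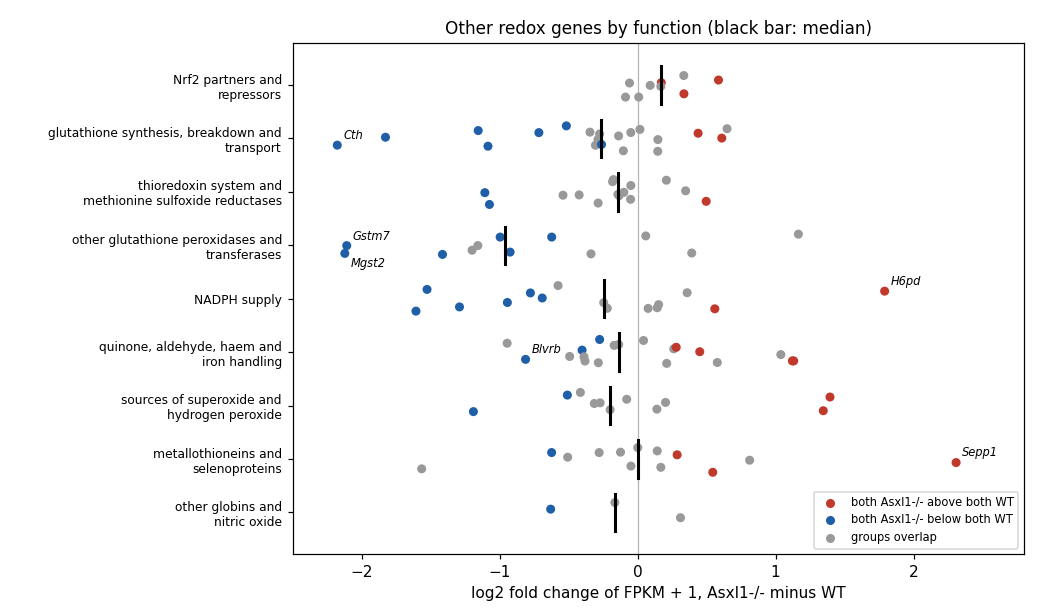
Log2 fold change of FPKM + 1, Asxl1-/- minus WT, of the 117 tested genes of the wider redox list by function, with the median of each function as a black bar. Red and blue mark genes whose groups do not overlap, and the 6 genes with the smallest p are named: Sepp1 and H6pd lie to the right, and Cth, Gstm7, Mgst2 and Blvrb to the left.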

How the data were processed

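RNA of 4 cultures was sequenced (2 WT, 2 Asxl1-/-). Per the submitters' processing notes the tools of the authors were TopHat2 2.0.3, Cufflinks 2.2.1 and Cuffdiff, and the build mm10. Not given in the sources used here: gene annotation, library kit, strandedness. The deposited FPKM table was used as it stands, with 1 added to starts to count from 1. The authors' deposited Cuffdiff table gives group FPKM, log2 fold changes, p-values and q-values. The FPKM table and a log copy hold 4 columns of values that match no sample, which were not used.

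Rows with a mean of at least 1 FPKM (11485) entered a limma fit (limma 3.58.1 in R 4.3.3, eBayes with trend) on log2(FPKM + 1), Benjamini-Hochberg adjusted at 0.05. Fold changes understate low genes. The fit was also run on simulated data with the same spread for all genes and no chromosome shifts. That run cannot show how the fit behaves on these libraries. Members and lists were chosen with earlier results of these data known. Described in full were Cygb, Nfe2l2, Keap1, members whose groups did not overlap, the 5 most abundant, the 3 with the widest gap within a group and, of the wider list, the 6 with the smallest p. Of its 164 symbols, older and newer names included, 151 matched. Other pseudocounts, filters, scalings and left-out libraries were tried.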

Additional observations from a re-analysis of the deposited data

How the results depend on the processing

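No paired analysis was possible because replicates were numbered in accession order. The number of the 41 genes past the adjusted limma threshold was 0 in each direction under all alternatives run: other pseudocounts (0.1, 0.5), filters (none, 5 FPKM) and scalings (median ratio, quantile), no variance trend, each library left out, and, chosen after seeing the data, chromosome medians removed. Over all rows 0 were higher and 3 lower. Without a filter the counts were 5 and 63, and with 1 library left out they ran from 0 to 4 and from 1 to 6. Genes with non-overlapping groups numbered 2 higher and 8 lower, and 3 and 7 with chromosome medians removed. With 1 library left out, which leaves fewer values to overlap, they ran from 4 to 13 and from 14 to 26. The wider list ran from 25 to 38 and from 45 to 55 in place of 17 and 28. No shares over all rows are given for these settings, so the counts of both lists have no background there. The median log2 fold change of the 41 genes' tested members (-0.18) ran from -0.49 to -0.031 with 1 library left out, and that of the wider list (-0.14) from -0.20 to -0.044. Median ratio scaling moved the median of all rows from -0.07 to 0.0069, quantile normalization to 0.016, and removal of chromosome medians to 0.0079. In the replicate 1 libraries alone, where macrophage markers were low (Asxl1-/- minus WT, chosen after seeing the data), the medians of the 41 genes and the wider list were 0.072 and -0.044. In the replicate 2 libraries alone they were -0.53 and -0.23. In the low libraries the log2 difference of Keap1 was 0.11, of Gpx3 3.48 and of Gpx7 0.35, each opposite in sign to the fit. The cause was not tested. Of 19 genes followed singly, all 150 values with every library kept had the sign of the fit. Of 76 with 1 library left out 73 had it, the exceptions being Gpx3 at 0.84 without WT replicate 2 and 0.57 without Asxl1-/- replicate 2, and Gpx7 at 0.26 without Asxl1-/- replicate 2. These values ran from -4.99 to 0.84 for Gpx3 and from -3.38 to 0.26 for Gpx7. With 1 library left out, the lone library is assumed to vary like the other group. The read number behind an FPKM is unknown, so low values such as those of Cygb in WT carry no counting interval.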

Other observations

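Of 11 tested genes of enzymes that make superoxide or hydrogen peroxide, 2 were separated high and 2 low, near the backgrounds of 15.6% and 25.2%. Nox4, the oxidase of fibroblasts that makes hydrogen peroxide, stood at 1.30 and 2.53 FPKM in WT and at 3.26 and 11.3 FPKM in Asxl1-/-, and its membrane partner Cyba at 47.2 and 12.3 FPKM against 57.7 and 74.4, both without overlap (limma adjusted p = 0.632 and 0.638). Aox1 stood lower, at 7.58 and 10.3 FPKM for WT versus 6.85 and 5.08, and so did Maob, at 3.50 and 0.528 versus 0.118 and 0.181 (limma adjusted p = 0.685 and 0.681). The phagocyte oxidase genes Cybb, Ncf1 and Ncf4 were at most 0.154 FPKM in WT replicate 1 and Asxl1-/- replicate 1. In WT replicate 2 they stood at 2.64 to 5.59 FPKM and in Asxl1-/- replicate 2 at 1.83 to 2.66, the libraries in which macrophage markers were high. These genes were chosen after their values were seen.

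The list of NADPH supply holds 4 genes of folate metabolism, singled out after their values were seen, and their libraries were separated low, where the background is 25.2%. Mthfd2 stood at 49.6 and 35 FPKM for WT versus 21.7 and 12.4, Shmt2 at 82.4 and 62.2 against 45.5 and 29.6, Aldh1l2 at 28 and 21.5 against 14.8 and 3.97, and Aldh1l1 at 1.26 and 7.76 against 0.745 and 0.221. None passed the test: the limma adjusted p was 0.562 for Mthfd2, 0.605 for Shmt2, and 0.632 for Aldh1l2 and for Aldh1l1. The metallothionein genes Mt1 and Mt2, which bind zinc and copper, were highest in WT replicate 1, at 332 and 265 FPKM. In the other 3 libraries Mt1 ran from 89.6 to 156 FPKM and Mt2 from 18.1 to 56.2, so the libraries of both genotypes overlapped.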
